A study of Mus musculus with 6 samples.

Results

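Integrins and the focal adhesion proteins beneath them were examined in cultured endothelial cells of the aorta, which form its inner lining. A list of 46 genes named the members, and rows of the deposited count table were taken where their symbol was on that list. The table held 45 of the 46 among its 17067 genes, and 43 of the 45 passed the filter on low counts, which left 12277 genes in all for testing. The integrin gene Itgb8 was not analysed here, and Itga8 and Lims2 lay below the filter, with at most 1 and at most 6 counts in any sample.

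The study set cells from mice infused with angiotensin II (AngII), the pressor peptide of the renin-angiotensin system, against cells from mice infused with saline. All animals were wild-type C57BL/6 mice given a subcutaneous pump at 8 weeks of age. The pump delivered AngII at 1000 ng/kg/min in the one group and physiological saline in the other, in each case for 14 days. Pieces of aorta 2 mm long were then explanted onto Matrigel, a basement membrane extract rich in laminin and collagen IV, in medium with 20% fetal calf serum, heparin and an endothelial growth factor, from which the endothelial cells began to migrate by days 5 to 7. Both groups therefore met the same laminin-rich substrate and serum outside the animal after the infusion had ended. Each group had 3 samples, and the labels do not say whether a sample came from 1 mouse or from several, or that the 3 came from separate animals, so p-values reflect sample-to-sample spread that may be technical in origin.

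Integrins are receptors made of 1 α and 1 β subunit that bind matrix outside the cell and, through talin and kindlin, couple to actin inside it. Clustered integrins recruit focal adhesion kinase, Src, paxillin and Cas scaffolds, which signal to the small GTPases, and vinculin, α-actinin, filamin, tensin and zyxin, which carry force to the cytoskeleton. In vessels, the fibronectin receptor α5β1 and the vitronectin receptor αvβ3 are known from growing endothelium, and the laminin receptors α3β1, α6β1 and α7β1 from attachment to basement membrane.

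Total counts ran from 21154724 to 23004780 in the saline samples and from 22646065 to 25141992 in the AngII samples. Mitochondrial genes took 4.48% to 4.61% of counts with saline and 4.03% to 4.29% with AngII, without overlap, and the part of this in the results was not tested. Endothelial markers were abundant in every sample, with summed levels of 6826 to 6905 CPM (read counts scaled to a common library size by the TMM method) with saline and 6424 to 7046 CPM with AngII over the 14 listed of 15. Of the 14, 4 were higher with AngII and 7 lower, among them, chosen after their values were seen, Flt1 (131 and 169 CPM) and Robo4 (601 and 385 CPM). The defining smooth muscle genes Acta2 and Tagln, the fibroblast genes Dcn, Lum and Col1a1 and the leukocyte gene Ptprc were all below the count filter. All 3 tested fibroblast genes were present at low levels and higher with AngII, namely Pdgfra, Pi16 and Col3a1, by 0.66, 0.51 and 1.27 on the log2 scale (means with AngII 5.55, 6.13 and 8.27 CPM). Gene and antisense partner share exonic bases at Ilk and Taf10 (2106 bases) and at Vcl and Ap3m1 (2090), and since the strand setting of the counting is not given in the sources used here their reads may not be separable. AngII was compared with saline by edgeR's quasi-likelihood test, and a gene passed at an adjusted p below 0.05. The 2 groups differed in much of the transcriptome, with 57.6% of tested genes past the threshold, 29.0% higher and 28.6% lower with AngII. In whole cultures, fewer cells of a type and less RNA per cell cannot be told apart.

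Of the 43 tested members 14 were higher with AngII and 18 were lower, together 74.4%, beside 57.6% of all tested genes. With the same floor on abundance the shares lay closer together. Among members with a mean of at least 50 CPM 26 of 34 passed (76.5%) with 11 higher and 15 lower, beside 69.1% of the 4636 tested genes at that level (35.7% higher and 33.4% lower), a share near enough that the number of members past the threshold is no result about them. The groups did not overlap in the same numbers of members, 14 upward and 18 downward, beside 31.3% and 31.4% of all tested genes, 62.7% together. The members' median log2 fold change was -0.01, and that of all tested genes was 0.00. Their median absolute log2 fold change was 0.18, against 0.19 for all tested genes. These medians lay close together but were not matched for abundance.

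Larger differences were counted next. Of the 43 tested members, 5 were past the threshold and at least 1.5-fold higher (Itga2, Itga7, Itga9, Itgb3 and Nedd9). Another 3 were so lower (Itgb4, Itgb7 and Ptk2b). Of all tested genes 4.47% were so higher and 5.85% lower, 10.3% together. Itga2, Itga9, Itgb4, Itgb7 and Ptk2b had under 50 counts in every sample, and Itga2 and Itga9 lost their calls in some alternative analyses. When each gene was tested against a change of 1.2-fold in place of no change, 4 members passed upward, namely Itga7, Itgb3, Nedd9 and Tns1, where 9.03% of all tested genes passed upward. Another 6 passed downward, Itga3, Tns3, Pak1, Itgb4, Ptk2b and Itgb7, where 9.51% of all tested genes did (18.5% in either direction). Against a change of 1.5-fold, Itga7 passed upward (2.05% of all tested genes) and Itgb7 downward (2.90%), beside 4.95% in either direction.

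**Figure D1:**
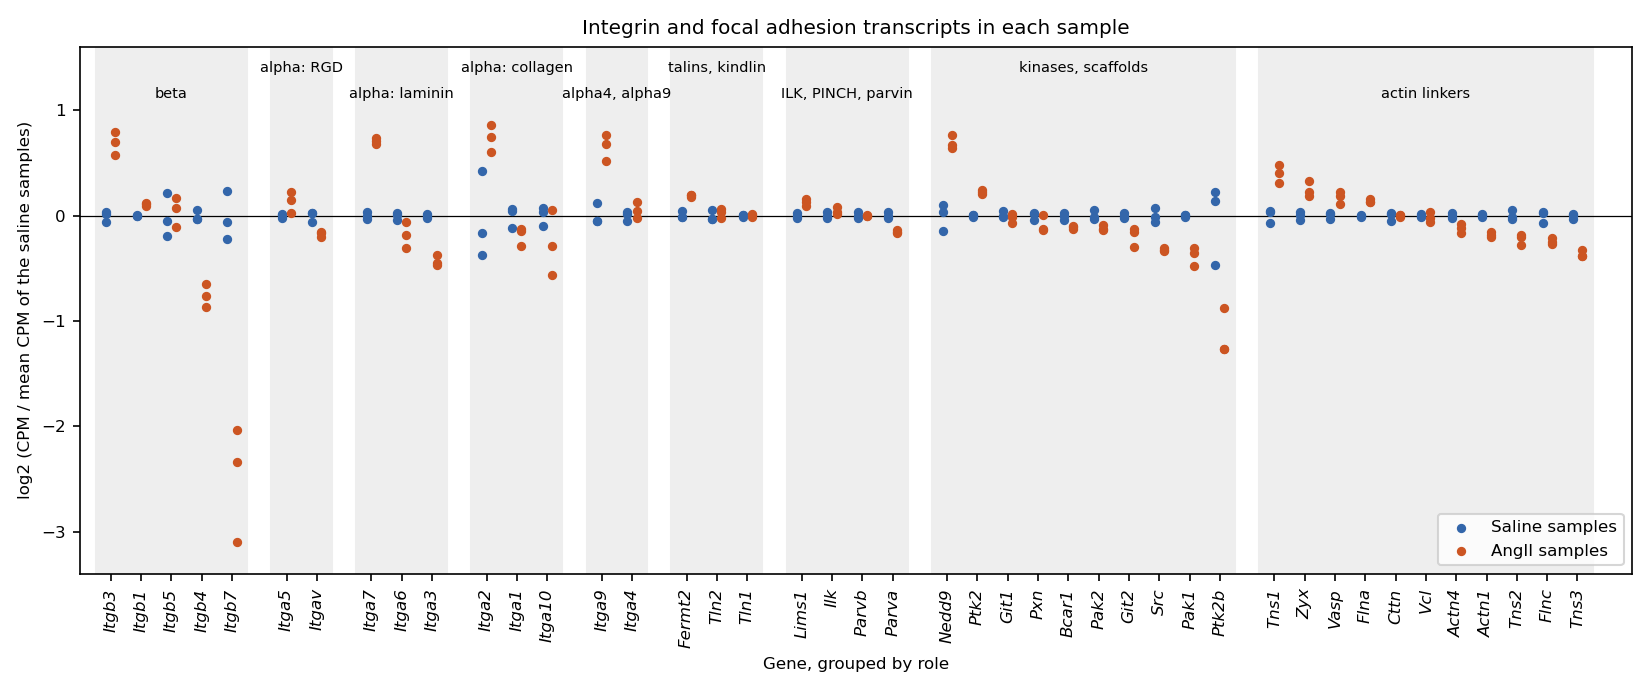
Each point is 1 sample's CPM for 1 tested member, as the log2 ratio to the mean of the 3 saline samples, for saline (blue) and AngII (orange), with genes grouped by role on the horizontal axis. Itgb3, Itga7, Nedd9 and Tns1 lie above the saline samples in all 3 AngII samples, and Itgb7 lies furthest below.

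Upstream sequence is shown for 4 of the 11 members that rose and have a RefSeq promoter window, chosen after their values were seen, to set a pair of receptor chains (Itga5, Itgb1) beside a scaffold and an actin linker (Nedd9, Tns1). RefSeq windows on GRCm38.p6 were matched for 34 of the 46 members, and the 250 bases before the start were taken. Capitals mark 3 motifs searched on both strands, the GC box GGGCGG, the AP-1 motif TGANTCA and the TEAD motif GGAATG. Itga5 lies on chr15:103366792-103367041 (minus strand), Itgb1 on chr8:128685404-128685653 (plus), Nedd9 on chr13:41359002-41359251 (minus) and Tns1 on chr1:74124549-74124798 (minus). The Nedd9 window precedes the RefSeq start and lies inside the longer span that GENCODE gives the gene.
Itga5: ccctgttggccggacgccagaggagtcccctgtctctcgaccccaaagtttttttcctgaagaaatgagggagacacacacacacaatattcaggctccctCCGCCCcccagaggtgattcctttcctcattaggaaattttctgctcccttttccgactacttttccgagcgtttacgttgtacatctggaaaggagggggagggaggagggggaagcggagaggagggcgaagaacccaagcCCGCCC
Itgb1: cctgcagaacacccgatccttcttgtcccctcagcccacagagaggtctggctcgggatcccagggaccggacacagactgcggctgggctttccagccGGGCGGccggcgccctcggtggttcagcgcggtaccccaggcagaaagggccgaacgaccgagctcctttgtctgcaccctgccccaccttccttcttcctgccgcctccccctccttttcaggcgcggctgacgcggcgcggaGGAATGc
Nedd9: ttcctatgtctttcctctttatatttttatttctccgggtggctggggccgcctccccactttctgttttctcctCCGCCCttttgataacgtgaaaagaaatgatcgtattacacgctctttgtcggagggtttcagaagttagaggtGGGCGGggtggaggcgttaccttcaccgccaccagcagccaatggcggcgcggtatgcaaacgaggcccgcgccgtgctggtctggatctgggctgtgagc
Tns1: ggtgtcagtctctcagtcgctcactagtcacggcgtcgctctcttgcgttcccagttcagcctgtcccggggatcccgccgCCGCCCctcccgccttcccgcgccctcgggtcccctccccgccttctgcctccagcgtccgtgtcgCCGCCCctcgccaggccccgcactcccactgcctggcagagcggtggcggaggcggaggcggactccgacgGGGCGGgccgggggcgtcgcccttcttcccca
All 4 windows held the GC box, with 3 matches in Tns1, 2 each in Itga5 and Nedd9 and 1 in Itgb1. The TEAD letters occurred once, in Itgb1, and the AP-1 letters in none of the 4. Over every RefSeq window of that length, 32.7% held the GC box, 6.7% the AP-1 letters and 12.6% the TEAD letters. Counted per gene, with a match in any of its windows, these shares were 35.4%, 7.8% and 14.4%. Counted in the same way, the GC box was found in 8 of 11 that rose, in 9 of 13 that fell and in 6 of 8 that did not pass. The AP-1 letters were found in 1 of 11, 1 of 13 and 0 of 8, and the TEAD letters in 2 of each of these sets. The shares beside these counts cover every RefSeq gene, tested here or not. None was computed for the tested genes alone, so they are no matched background. A match describes letters only.

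The β subunits, which set the family of a receptor, moved apart. Itgb3 (chromosome 11, 104608000 to 104670476, GRCm38) encodes the β3 chain of the vitronectin and fibronectin receptor αvβ3. Its level was 124, 126 and 118 CPM in saline replicates 1 to 3 and 213, 199 and 183 CPM in AngII replicates 1 to 3. All 3 AngII samples stood well above all saline samples, and the rise was 1.62-fold (log2 fold change 0.69 ± 0.0452, SE; edgeR adjusted p = 3.1e-10). Itgb1 (chromosome 8, 128685654 to 128733200), the common β1 partner of the laminin, collagen and fibronectin receptors, was at 685, 690.2 and 687 CPM with saline and 741, 747 and 733 CPM with AngII. The groups did not overlap, but the difference was small, 1.08-fold (adjusted p = 0.00480), and it no longer passed in a fit adjusted for a spline trend on transcript GC content and length (the GC-adjusted fit; log2 fold change 0.03, adjusted p = 0.374). Itgb5, the β chain of the other main vitronectin receptor, overlapped between groups at a low level (8.17 ± 1.19 against 8.44 ± 0.828 CPM, SD, n = 3; adjusted p = 0.715).

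The remaining β subunits were scarce. Itgb7 (chromosome 15, 102215995 to 102231944), the β chain of the leukocyte receptors α4β7 and αEβ7, had 45, 34 and 40 counts with saline and 5, 8 and 11 with AngII. Its fall, by 2.40 on the log2 scale (SE 0.293; edgeR adjusted p = 1.3e-06), was the largest among the tested members, at 1.80 ± 0.293 against 0.335 ± 0.116 CPM (SD, n = 3). Itgb4, which pairs with α6 in the hemidesmosomes of epithelia, fell from 2.04 ± 0.0710 to 1.21 ± 0.0908 CPM (log2 fold change -0.75, adjusted p = 0.00249). Of the integrin genes outside the member list, 8 of 10 were in the table and 3 were tested. All 3 fell, namely Itgb2 from 3.25 ± 0.0815 to 1.22 ± 0.208 CPM and Itgal from 1.03 ± 0.271 to 0.434 ± 0.0926 CPM, the chains of the leukocyte receptor LFA-1, and Itga2b, the platelet αIIb chain, from 5.76 ± 0.499 to 4.71 ± 0.478 CPM.

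Markers of other cell types were compared beside these scarce subunits. In the macrophage and leukocyte list, 6 of the 9 listed genes, Ptprc, Adgre1, Csf1r, Itgam, Mrc1 and Cd79a, had at most 3 counts in every sample. Its summed level was 272 to 276 CPM with saline and 265 to 281 CPM with AngII, nearly all of it Cd68 (271 and 270.3 CPM). Of its 3 tested genes Lyz2 was higher with AngII (2.51 and 3.33 CPM, edgeR adjusted p = 0.0228). Cd68 and Cd14 (1.04 and 0.872 CPM) did not pass. The mesothelial and epithelial list, 10 genes of which 3 had at most 3 counts throughout, was lower with AngII, at 8.03 to 9.45 against 2.71 to 3.36 CPM. Within it Krt7 averaged 3.12 and 0.391 CPM, and Msln 2.47 and 1.24 CPM. The part of such cells in the falls of Itgb7 and Itgb4 was not tested.

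Among α subunits of receptors for the RGD sequence of fibronectin and vitronectin, the 2 tested genes went opposite ways. Itga5 (chromosome 15, 103344286 to 103366763), the α chain of the fibronectin receptor, was at 405, 413 and 417 CPM with saline and 479.9, 456 and 419 CPM with AngII. The lowest AngII sample, replicate 3, barely cleared the highest saline sample, and the rise was 1.10-fold (edgeR adjusted p = 0.00755). Itgav (chromosome 2, 83724397 to 83806916), the α chain shared by αvβ3 and αvβ5, was at 251, 252 and 237 CPM with saline and 219.8, 221 and 215 CPM with AngII, a fall of 0.17 on the log2 scale (adjusted p = 1.4e-04). Itgb3 and its partner Itgav thus changed in opposite directions. Itga8, the α chain of the nephronectin receptor of mesenchymal cells, was listed at 0 counts with saline and at 0, 1 and 1 with AngII.

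The 3 laminin-receptor α chains all passed, with Itga7 higher and Itga3 and Itga6 lower. Itga7 (chromosome 10, 128933818 to 128958282), best known as the laminin receptor chain of skeletal and smooth muscle, was at 58.8, 61.8 and 60.3 CPM with saline and 100.2, 98.5 and 96.7 CPM with AngII. The 3 samples of each group lay close together, and the rise was 1.63-fold (log2 fold change 0.71 ± 0.0359, SE; edgeR adjusted p = 9.6e-12). Itga3 (chromosome 11, 95044474 to 95076801), a receptor chain for the endothelial and epithelial laminins, was at 390.1, 386 and 381 CPM with saline and 298, 282 and 278 CPM with AngII. Here too the groups were far apart, and the level was 1.35-fold lower (log2 fold change -0.43 ± 0.0321, adjusted p = 1.9e-09). Itga6 fell less, from 167 ± 4.46 to 147 ± 12.6 CPM (SD, n = 3; log2 fold change -0.18, adjusted p = 0.00277). Smooth muscle markers were set beside Itga7. Of the 10 listed, Cnn1, Lmod1 and Myocd had at most 3 counts in every sample, and Myh11 (0.958 and 0.183 CPM), Des (1.59 and 0.152 CPM) and Synpo2 (4.83 and 2.57 CPM) were lower with AngII. The summed level of the list was 94.5 to 96.2 CPM with saline and 111 to 115 CPM with AngII, most of it Smtn (87.5 and 109 CPM), and the part of such cells in the rise of Itga7 was not tested. The summed pericyte list was 13.7 to 14.7 CPM with saline and 7.08 to 8.76 CPM with AngII. Of its 2 tested genes Notch3 fell (8.97 ± 0.226 against 2.29 ± 0.144 CPM, SD, n = 3), while Pdgfrb did not pass (5.01 ± 0.655 against 5.64 ± 0.728 CPM, edgeR adjusted p = 0.265).

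Of the collagen-receptor chains, Itga1, the main one here, fell from 297 ± 20.1 to 261 ± 15.6 CPM (log2 fold change -0.19, edgeR adjusted p = 0.00199). Its annotated exons share 685 bases on the same strand with Gm49395, which is also in the table, so its reads could have been divided by the counting. Itga10, a collagen receptor chain of cartilage that shares 1739 exonic bases with Gm42957, overlapped between groups (3.03 ± 0.190 against 2.56 ± 0.556 CPM, adjusted p = 0.224). It passed as lower only without AngII replicate 1 (adjusted p = 0.0481). Itga2, the α chain of the platelet collagen receptor, had 17 to 31 counts with saline and 38 to 41 with AngII. Its rise of 0.73 on the log2 scale (adjusted p = 0.0134) was lost without saline replicate 1, saline replicate 2 or AngII replicate 2 (adjusted p = 0.0504, 0.0751 and 0.0517). Itga4, the receptor chain for VCAM1, did not pass (78.2 ± 2.29 against 81.1 ± 4.19 CPM, adjusted p = 0.281). Itga9, a chain known from lymphatic valves, had 22 to 27 counts with saline and 37 to 46 with AngII (log2 fold change 0.65, adjusted p = 0.0118). That call was lost in DESeq2 (adjusted p = 0.0626) and without AngII replicate 3 (0.0501). In the lymphatic endothelial list Lyve1 (96.8 and 187 CPM), Pdpn (4.88 and 7.28 CPM) and Flt4 (121 and 141 CPM) were also higher, while Prox1, the defining factor, had at most 3 counts in every sample. The part of such cells in the rise of Itga9 was not tested.

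Levels of the subunits on the member list were compared as CPM per kb of exonic length. Outside that list, Itgb2, Itga2b and Itgal stood at 1.07, 1.06 and 0.157 CPM per kb in saline and are left out of the orders below. Of the member β subunits, Itgb1 led in saline at 168 CPM per kb, followed by Itgb3 at 20.8. Itgb5 at 2.30, Itgb7 at 0.649 and Itgb4 at 0.290 came next, with no overlap between neighbours over the saline samples. Of the member α subunits, Itga5 led at 83.5 CPM per kb, followed by Itga3 at 67.5, Itgav at 23.0 and Itga6 at 18.5. Itga1 at 16.0, Itga7 at 7.45, Itga4 at 5.59 and Itga10 at 0.585 came next. Neighbours in that order did not overlap either, whereas Itga9 and Itga2, both at 0.141 CPM per kb, did. With AngII the order of these chains held for the α subunits down to Itga10, while Itgb4 (0.172 CPM per kb) came above Itgb7 (0.121). Divided by the longest annotated transcript instead, Itga6 (38.7) came above Itgav (35.0) in saline.

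The make-up of the subunits on the member list shifted accordingly, with all sums taken over that list alone. Itgb3 made up 10.8% ± 0.335 of the summed β level per kb in the saline samples (SD, n = 3) and 15.4% ± 0.932 in the AngII samples, while Itgb1 went from 87.5% ± 0.394 to 83.3% ± 0.873. Itga5 rose from 37.5% ± 0.807 to 43.3% ± 0.835 of the summed α level (SD, n = 3), Itga7 from 3.35% ± 0.0781 to 5.76% ± 0.181, and Itga3 went from 30.4% ± 0.279 to 23.7% ± 0.553. None of these groups overlapped. Each had an exact two-sided permutation p of 0.10, the smallest that 3 samples against 3 allow, and 0.146 after Benjamini-Hochberg adjustment over the 19 shares and sums computed. A share also moves with the levels of the other chains. The level of Itgb1 itself went from 168 to 181 CPM per kb, a rise that did not pass in the GC-adjusted fit. Shares, sums and ratios were not recomputed in that fit. Itga5 went from 83.5 to 91.6 CPM per kb, while Itga3 went from 67.5 to 50.1. The summed β level was 193 ± 1.33 with saline and 218 ± 3.58 CPM per kb with AngII, without overlap, while the summed α level, 222 ± 2.43 against 211 ± 10.4 CPM per kb, overlapped. The ratio of Itgb3 to its partner Itgav went from 0.902, 0.910 and 0.903 to 1.77, 1.63 and 1.55. These ratios depend on the length used, and with the longest annotated transcript the same ratio went from 0.606 ± 0.00302 to 1.11 ± 0.0729, while the relative difference between groups is the same by construction.

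**Figure D2:**
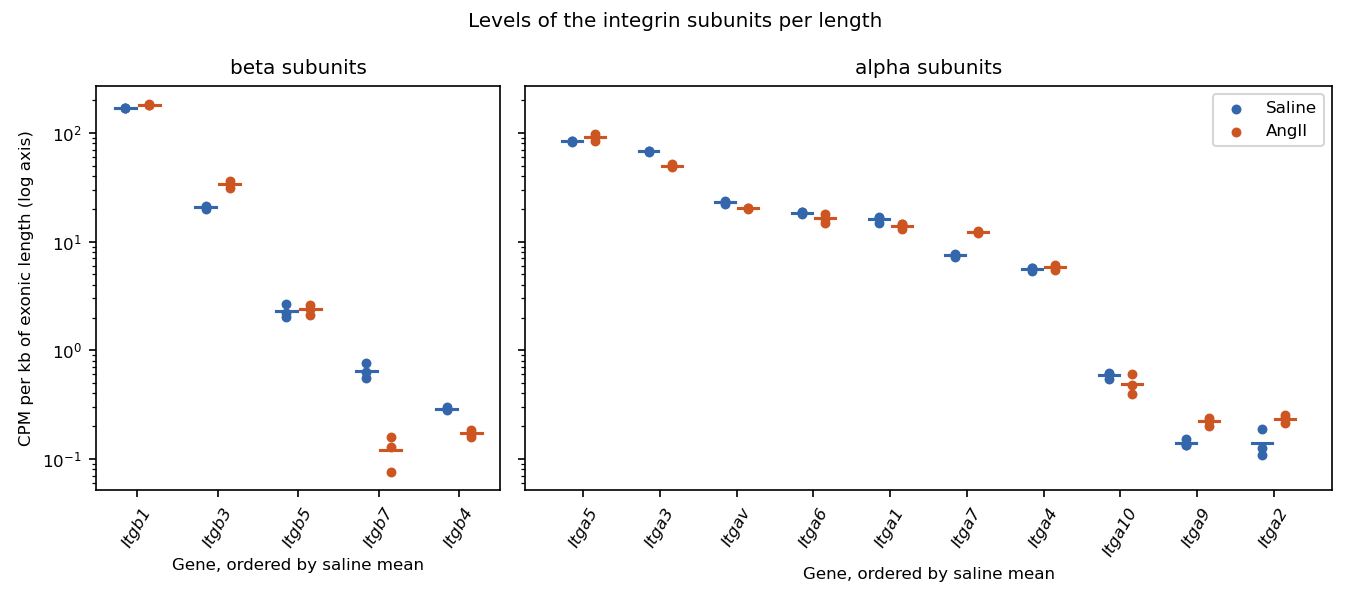
CPM per kb of exonic length (log axis) of the member β and α subunits in each saline (blue) and AngII (orange) sample. Bars mark the group mean, and genes are ordered by their saline mean. Itgb1 leads at 168 and 181 CPM per kb, Itgb3 goes from 20.8 to 33.6, Itga7 from 7.45 to 12.2 and Itga3 from 67.5 to 50.1.

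Of the 3 proteins that switch integrins on, Fermt2 rose and the talins did not pass. Tln1, talin 1, which binds β tails and pulls the receptor into its active form, was at 453, 454 and 446 CPM with saline and 453, 447 and 455 CPM with AngII (edgeR adjusted p = 0.949). The samples of the groups were interleaved. In the GC-adjusted fit Tln1 passed as higher (log2 fold change 0.12, adjusted p = 0.00129). Tln2, the talin of heart, muscle and brain, did not pass (24.0 ± 0.803 against 24.4 ± 0.685 CPM, adjusted p = 0.713). Fermt2, kindlin 2, the partner of talin in activation, rose in all 3 samples, from 139 ± 2.75 to 158 ± 1.58 CPM (1.14-fold, adjusted p = 6.5e-05).

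The complex of ILK, PINCH and parvin ties β tails to actin. Ilk, the pseudokinase at its centre, overlapped between groups (133 ± 2.30 against 137 ± 3.41 CPM, edgeR adjusted p = 0.376), as did Parvb (225 ± 3.94 against 225 ± 0.776 CPM, adjusted p = 0.979). Parva, the most widely expressed parvin, fell from 347 ± 7.31 to 312 ± 2.71 CPM (log2 fold change -0.15, adjusted p = 2.3e-04). Lims1, which encodes PINCH 1, was 1.09-fold higher (161 ± 3.17 against 176 ± 3.66 CPM, adjusted p = 0.00237) but did not pass in the GC-adjusted fit (adjusted p = 0.343). Lims2, the PINCH 2 gene, was near 0, with 6, 1 and 0 counts with saline and 0, 2 and 2 with AngII.

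Among kinases and signalling scaffolds 6 of 10 fell and 2 rose, beside 28.6% lower and 29.0% higher of all tested genes. At a mean of at least 50 CPM, 33.4% of tested genes were lower and 35.7% higher. Of the 6 that fell, 1, Bcar1, did not hold in the GC-adjusted fit. Nedd9 (chromosome 13, 41309581 to 41487362), a Cas-family scaffold that FAK and Src phosphorylate, was at 15.9, 16.6 and 14.0 CPM with saline and 24.2, 26.4 and 24.6 CPM with AngII. Every AngII sample exceeded every saline sample, and the rise was 1.62-fold (log2 fold change 0.69 ± 0.0687, SE; edgeR adjusted p = 8.6e-08). Its relative Bcar1, which encodes p130Cas, was slightly lower (104 ± 2.71 against 96.2 ± 1.11 CPM, adjusted p = 0.0103). In the GC-adjusted fit that difference was 0.02 on the log2 scale (adjusted p = 0.645). Per kb, Nedd9 stood at 0.107 ± 0.0118 of Bcar1 with saline and 0.186 ± 0.00805 with AngII.

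Ptk2 (chromosome 15, 73205102 to 73423280), focal adhesion kinase, was at 172, 175 and 175 CPM with saline and 201, 203 and 206 CPM with AngII. The groups were clearly apart, at 1.17-fold (edgeR adjusted p = 3.7e-06). Ptk2b, the related kinase PYK2 of leukocytes and neurons, was scarce and went the other way, with 48, 47 and 32 counts with saline and 25, 18 and 20 with AngII (log2 fold change -1.11 ± 0.243, adjusted p = 7.1e-04). Src (chromosome 2, 157418444 to 157471862), the kinase that FAK recruits, was at 109, 113 and 119.9 CPM with saline and 90.2, 90.6 and 91.9 CPM with AngII. All 3 AngII samples lay below the saline samples, and Src fell by 0.33 on the log2 scale (SE 0.0375, adjusted p = 5.8e-07). Paxillin, Pxn, the scaffold they phosphorylate, did not pass (182 ± 4.46 against 172 ± 9.28 CPM, adjusted p = 0.0760). It passed as lower with library totals alone (adjusted p = 0.0469), with the replicate number as a block (0.0336) and without AngII replicate 1 (0.00243). In the GC-adjusted fit it turned to 0.05 on the log2 scale without passing (adjusted p = 0.172).

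Pak1 (chromosome 7, 97788541 to 97912381), a kinase driven by Rac and Cdc42 that speeds the turnover of adhesions, was at 75.7, 74.9 and 75.9 CPM with saline and 54.0, 58.9 and 60.8 CPM with AngII. It fell by 0.38 on the log2 scale with no overlap (edgeR adjusted p = 3.2e-07). Pak2, the more abundant form in these cells per kb, fell by 0.12 (206 ± 7.01 against 189.9 ± 3.93 CPM, adjusted p = 0.00457). Git2, one of the pair of GTPase-activating proteins that bring Pak and PIX to paxillin, fell by 0.19 (133 ± 1.86 against 117 ± 7.28 CPM, adjusted p = 4.6e-04). Its relative Git1 did not pass (111 ± 1.95 against 109 ± 3.07 CPM, adjusted p = 0.510), but in the GC-adjusted fit it was higher by 0.09 on the log2 scale (adjusted p = 0.0272).

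Of 11 actin linkers and crosslinkers, 4 rose and 5 fell, beside 29.0% and 28.6% of all tested genes. At a mean of at least 50 CPM, 35.7% of tested genes rose and 33.4% fell. The tensins, which bind β tails in mature and fibrillar adhesions, diverged. Tns1 (chromosome 1, 73910231 to 74124449) was at 192, 193 and 178 CPM with saline and 260.1, 248 and 232 CPM with AngII, all 3 of the latter higher. Its rise was 1.32-fold (log2 fold change 0.40 ± 0.0408, SE; edgeR adjusted p = 1.4e-07). Tns3 (chromosome 11, 8431652 to 8664535) was at 297, 295 and 288 CPM with saline and 226, 226 and 235 CPM with AngII. Every AngII sample was lower, and Tns3 fell by 0.36 on the log2 scale (SE 0.0307, adjusted p = 1.4e-08). Tns2 also fell, from 165 ± 5.65 to 141 ± 4.78 CPM (adjusted p = 2.6e-05).

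Zyx, zyxin, which gathers at adhesions under tension, rose 1.19-fold (89.6, 93.0 and 94.6 CPM against 116, 105 and 108 CPM, edgeR adjusted p = 3.0e-05). Vasp, the actin elongation factor that zyxin recruits, rose 1.13-fold (88.8 ± 1.97 against 100.1 ± 4.25 CPM, adjusted p = 7.4e-04). Flna, filamin A, the general crosslinker that binds β tails, rose from 898 ± 5.51 to 987 ± 12.7 CPM (adjusted p = 8.0e-04). Flnc, the filamin best known from muscle, fell from 503 ± 19.7 to 425 ± 8.60 CPM (adjusted p = 5.8e-06). The α-actinins Actn1 (339.8 ± 3.66 against 299 ± 4.66 CPM, adjusted p = 3.4e-05) and Actn4 (472 ± 7.40 against 434 ± 13.7 CPM, adjusted p = 0.00304), which bundle actin at adhesions, fell. Actn4 did not pass in the GC-adjusted fit (adjusted p = 0.160). Vinculin, Vcl, which locks talin to actin under load, did not pass (249 ± 3.36 against 246 ± 8.11 CPM, adjusted p = 0.710), nor did cortactin, Cttn (249 ± 7.00 against 249 ± 2.13 CPM, adjusted p = 0.997).

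**Figure D3:**
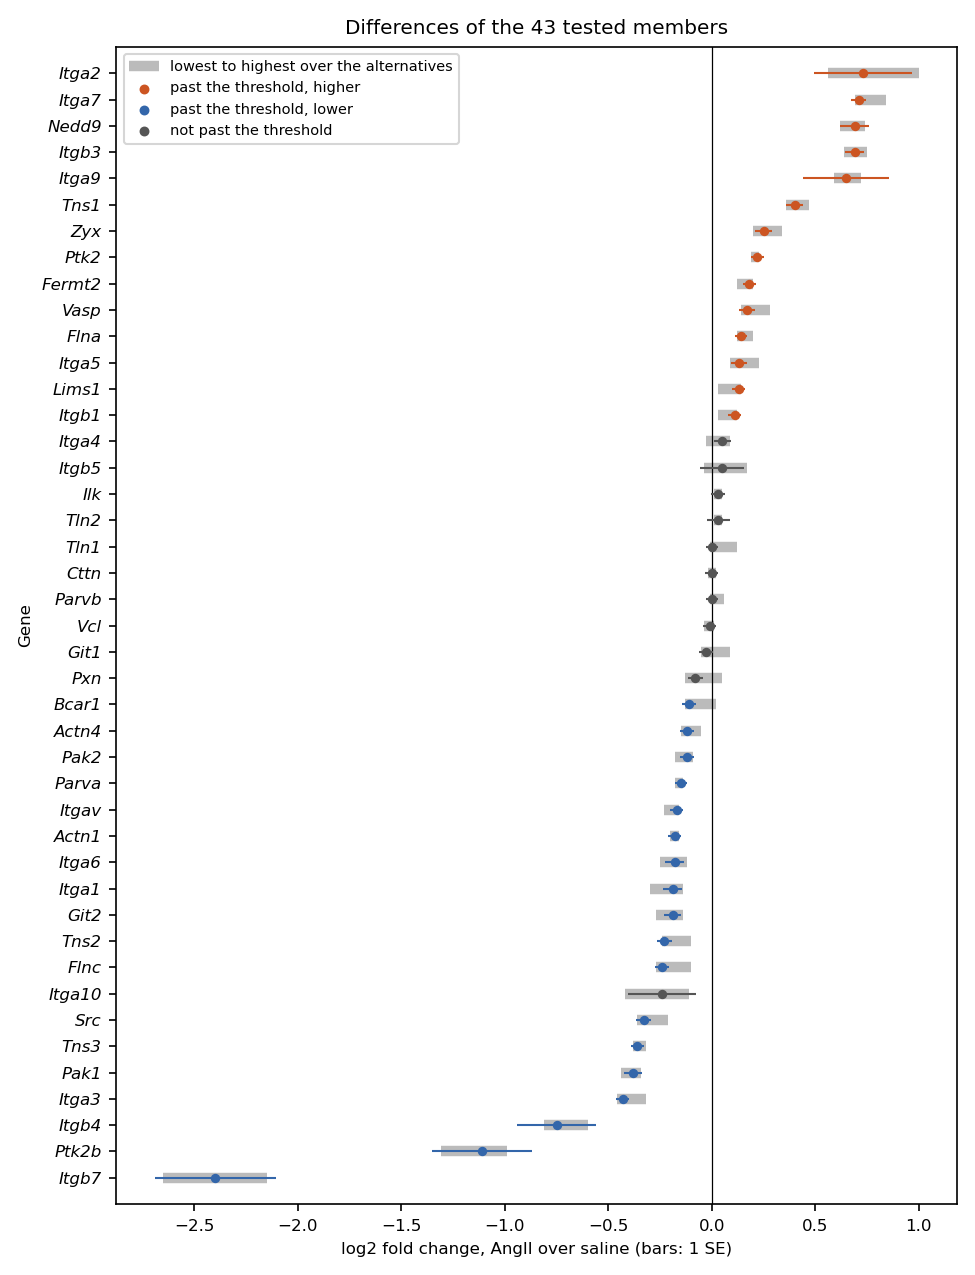
Log2 fold change of AngII over saline for the 43 tested members, with bars of 1 SE and grey bands from the lowest to the highest value over 15 alternative analyses. Itgb7 (-2.40) and Ptk2b (-1.11) are lowest, Itga2 (0.73) and Itga7 (0.71) highest, and Tln1, Cttn, Parvb and Vcl lie near 0.

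Related genes were compared by the log2 ratio of their CPM per kb within each sample, for 15 pairs. In 13 of the 15 the AngII samples did not overlap the saline samples. Single genes did not overlap in 62.7% of all tested genes, and no share was computed for other gene pairs, so the count is a description only. The ratio of Ptk2 to Ptk2b differed most, from 5.86 ± 0.392 to 7.18 ± 0.240 (SD, n = 3), but rests on the few counts of Ptk2b. The ratio of Itga7 to Itga3 came next, at -3.23, -3.14 and -3.16 with saline and -2.07, -2.02 and -2.03 with AngII. Tns1 to Tns3 went from -1.17 ± 0.0439 to -0.41 ± 0.113, Tns1 to Tns2 from -1.37 ± 0.0498 to -0.75 ± 0.0483, and Flna to Flnc from 0.84 ± 0.0501 to 1.22 ± 0.0144 (SD, n = 3). Pak1 to Pak2 went down, from -0.66 ± 0.0437 to -0.93 ± 0.0801. The ratios of Tln1 to Tln2 (5.14 ± 0.0413 and 5.12 ± 0.0438) and of Actn4 to Actn1 (0.33 ± 0.0382 and 0.39 ± 0.0240) overlapped between groups. Each pair without overlap had an exact two-sided permutation p of 0.10, the smallest this design allows, and 0.115 after Benjamini-Hochberg adjustment over the 15 pairs.

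**Figure D4:**
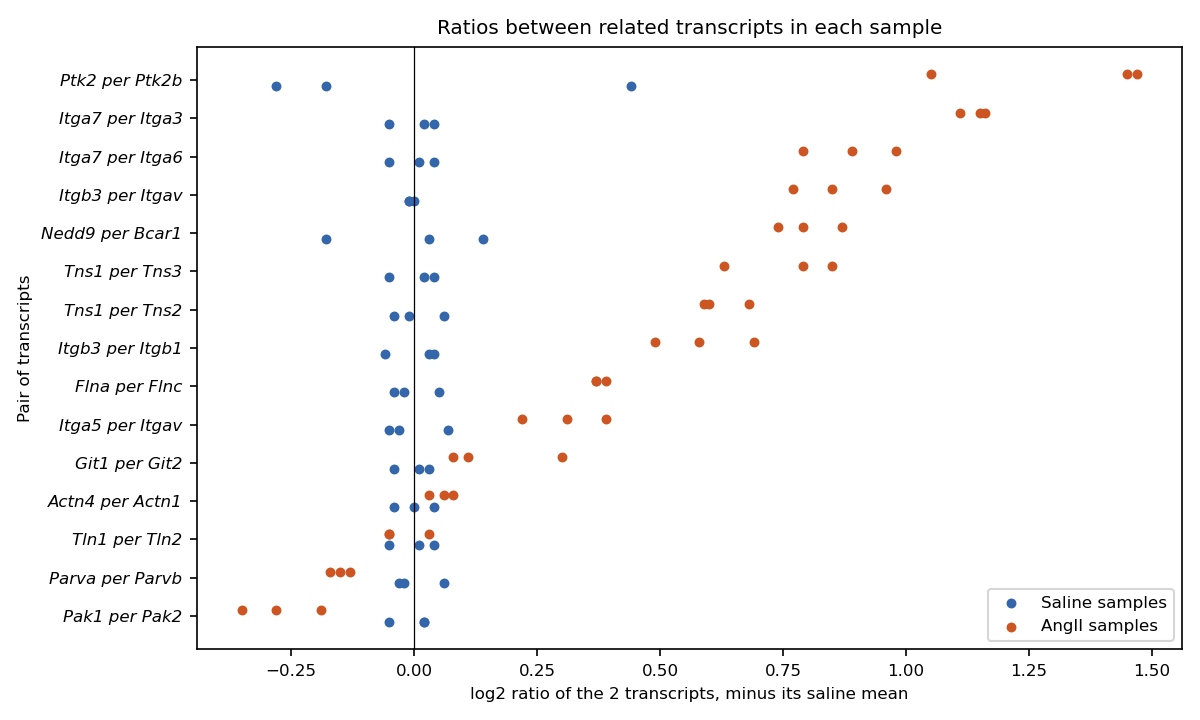
Log2 ratio of the CPM per kb of 15 pairs of related transcripts in each saline (blue) and AngII (orange) sample, minus the saline mean of that pair. The AngII samples lie to the right for Ptk2 per Ptk2b, Itga7 per Itga3 and Tns1 per Tns3, to the left for Pak1 per Pak2, and among the saline samples for Tln1 per Tln2.

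Other genes of the pathway were read from lists. Of the ligands of integrins in matrix and on cells, 42 of 43 were in the table and 30 were tested. Of the 30, 14 rose (46.7%) and 12 fell (40.0%), beside 29.0% and 28.6% of all tested genes. Among tested genes with a mean of at least 50 CPM 35.7% rose and 33.4% fell, and the list was not matched for abundance. The median log2 fold change of the ligands was 0.05, against 0.00 for all tested genes. Ccn3, a matricellular ligand of αvβ3 and α5β1, rose from 322 ± 7.05 to 584 ± 23.3 CPM (SD, n = 3; edgeR adjusted p = 4.1e-13), Tnc, tenascin C, from 163 ± 2.82 to 207 ± 4.12 CPM, and Col3a1 from 3.43 ± 0.388 to 8.27 ± 0.743 CPM. Col3a1 is also a fibroblast marker, and that list of 8 genes summed to 10.9 to 12.3 CPM with saline and 18.7 to 21.5 CPM with AngII, with Lum and Col1a1 at 3 counts or fewer in every sample; the part of such cells in the rise of Col3a1 was not tested. Among laminin chains Lama5 fell from 454 ± 26.3 to 251 ± 26.9 CPM (adjusted p = 2.6e-10) and Lamb2 from 157 ± 2.06 to 109 ± 7.44 CPM. Nid1, which links laminin to collagen IV, fell from 585 ± 10.5 to 450 ± 9.60 CPM.

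Further ligands were chosen after their values were seen. Lama4, the other α chain of endothelial laminins, rose from 433 ± 5.72 to 496 ± 25.3 CPM (edgeR adjusted p = 1.2e-04) and the shared chain Lamc1 from 479.8 ± 4.01 to 542 ± 8.99 CPM. Spp1, osteopontin, a ligand of αvβ3, rose from 50.4 ± 1.99 to 69.4 ± 3.78 CPM. Fn1, fibronectin, the ligand of α5β1, did not pass (589 ± 21.3 against 604 ± 38.7 CPM, adjusted p = 0.470), and the vitronectin gene Vtn had at most 1 count in any sample. Of the 2 laminin α chains of endothelium, Lama5 therefore fell and Lama4 rose. Among laminin receptor chains Itga3 and Itga6 fell and Itga7 rose. The shared chain Itgb1 was 1.08-fold higher but did not pass in the GC-adjusted fit. A relation between ligand and receptor levels was not tested.

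**Figure D5:**
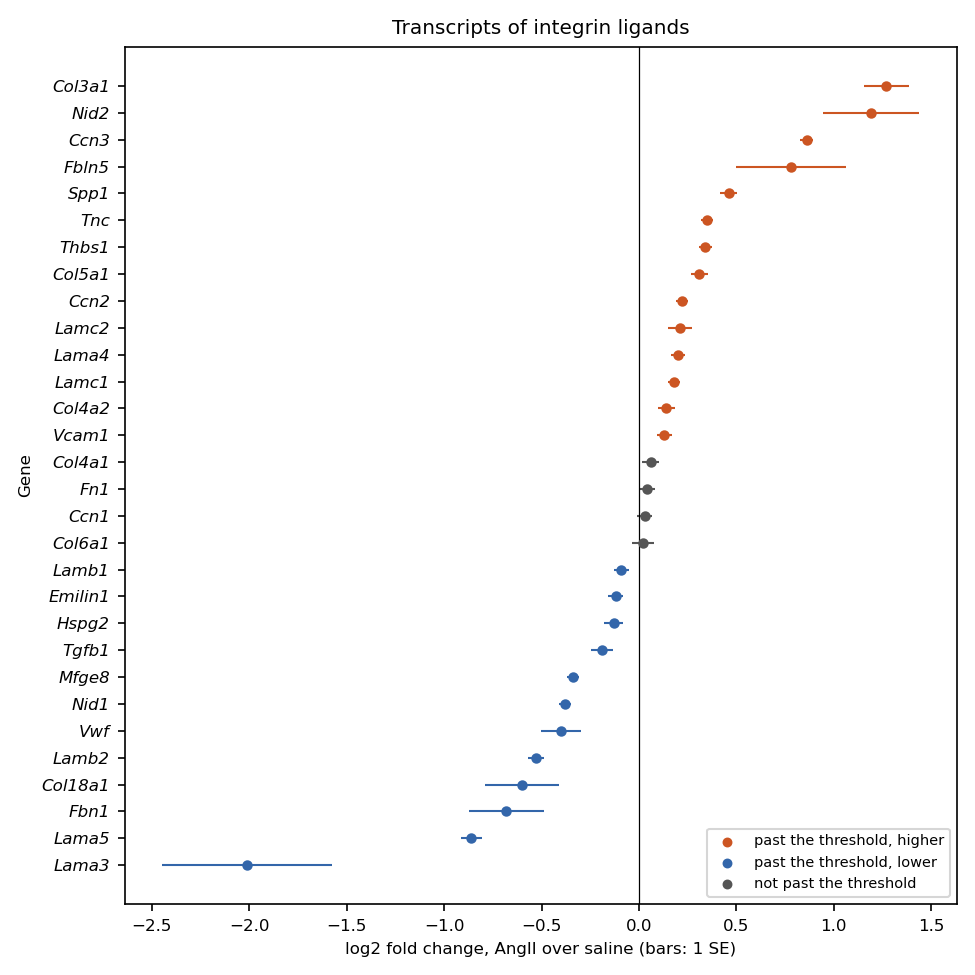
Log2 fold change of AngII over saline with bars of 1 SE for the 30 tested ligands of integrins, coloured by whether they passed the threshold. Ccn3 (0.86) and Col3a1 (1.27) lie to the right, Lama5 (-0.86) and Lama3 (-2.01) to the left, and Fn1 (0.04) near 0. Lama3 was scarce, with 16, 16 and 33 counts with saline and 5, 2 and 10 with AngII.

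Of 29 tested members of a list of other adhesion adaptors and actin regulators, 8 rose and 13 fell (median log2 fold change -0.09). Sorbs2 (111 ± 2.51 against 142 ± 2.58 CPM) and Synpo (54.9 ± 2.27 against 72.4 ± 5.17 CPM), adaptors of stress fibres, rose with Ppfibp1, a liprin (238 ± 1.61 against 278 ± 4.26 CPM). Palld, palladin (188 ± 5.83 against 133 ± 0.555 CPM), Lasp1 (451 ± 0.412 against 335 ± 7.01 CPM) and Kank2, which links talin to microtubules (164 ± 2.77 against 113 ± 5.88 CPM), fell (SD, n = 3). Of 35 other kinases, exchange factors and phosphatases of adhesion 11 rose and 13 fell (median -0.02). Elmo1, which activates Rac together with Dock1, rose by 0.55 on the log2 scale, Arhgef2 by 0.37 and Ptpn12, the phosphatase of p130Cas, by 0.36. Arhgap35, p190RhoGAP, fell by 0.35, Mylk, myosin light chain kinase, by 0.33 and Yes1, a Src-family kinase, by 0.17. The share that rose and fell was 27.6% and 44.8% of the adaptors and 31.4% and 37.1% of the other list, beside 29.0% and 28.6% of all tested genes. For abundant genes, averaging 50 CPM or more, these shares were 35.7% and 33.4%. Neither list was matched for abundance.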

How the data were processed

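RNA from 6 samples was sequenced as strand-marked mRNA libraries, per the labels' protocols. Reads were aligned with HISAT2 to mm10, per the submitters' processing notes. The quantifier, annotation and strand setting are not given in the sources used here. The authors deposited a table of expected counts, estimated counts per gene symbol whose totals differ between samples, for 17067 genes. Of the values 83.0% are whole numbers, and all were rounded to whole numbers. Total counts were 21154724 to 25141992 a sample.

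Genes were filtered with filterByExpr (minimum count 10, total 15) and scaled by TMM. edgeR 4.0.16 in R 4.3.3 gave the quasi-likelihood F-test with Benjamini-Hochberg adjustment over all 12277 tested genes, at a threshold of 0.05. The standard error is the absolute log2 fold change divided by the square root of F. All 6 samples entered without covariates. CPM are TMM-scaled. Exact permutation tests used scipy 1.17.1. Exonic length, GC content, coordinates and overlaps came from GENCODE M21 (GRCm38), which matched 93.73% of symbols. RefSeq supplied promoter windows. The steps were tested on simulated data with far fewer changed genes than here, so that test does not cover changes this widespread. Alternatives were other size factors, other filters, DESeq2 1.42.0, limma-voom 3.58.1, tests against a fold, removal of a spline trend on GC content and length, a replicate block and leaving out each sample.

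Members and lists were chosen with earlier results of these data known. Every listed member could be named, and from each pathway list up to 3 that rose and 3 that fell with the smallest p-values. Lama3, Lama4, Lamc1, Spp1, Fn1 and Vtn were named outside this rule, after their values were seen, as were single marker genes.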

Additional observations from a re-analysis of the deposited data

How the results depend on the processing

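In the 15 alternatives other than the tests against a fold, 12 to 15 members were higher and 15 to 20 lower. Of the 32 members past the threshold 26 kept call and direction in every such alternative in which they were tested. Another 5 (Itga2, Itga9, Itgb1, Lims1 and Actn4) lost the call in at least 1, and Bcar1 turned. Of those not past it 5 passed in at least 1 (Itga10, Tln1, Pxn, Git1 and Parvb). Sizes also moved where the call held. Flnc ranged from -0.27 to -0.10 on the log2 scale, Tns2 from -0.24 to -0.10, Src from -0.36 to -0.21 and Itga5 from 0.09 to 0.23. Tested against a fold of 1.2, 1109 genes were higher and 1167 lower, with 4 and 6 members. Against 1.5 these were 252 and 356, with 1 and 1 members. Removing the GC and length trend, alone or with the replicate block, turned Itga4 to -0.03, Pxn to 0.05, Parvb to 0.06, Bcar1 to 0.02 and Git1 to 0.09 on the log2 scale. Parvb then passed with the block (adjusted p = 0.0477). Library totals alone turned Tln1 to -0.01 and Cttn to -0.01. The filter at 5 CPM, which left 37 members, turned Tln1 to -0.00 and Cttn to -0.01. Median-of-ratios factors and DESeq2 turned Cttn to -0.00, and no filter turned Parvb to 0.01. Leaving out 1 sample moved Itgb5 to between -0.04 and 0.17 and turned Tln1 to -0.00, Vcl to 0.01, Parvb to 0.01 and Cttn to between -0.02 and -0.00. The cause of these turns was not tested. With 1 sample left out, 13 to 14 members were higher and 18 to 20 lower.

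Saline and AngII samples with the same replicate number showed weak correlations of their deviations from the group means (0.087, 0.055 and 0.007), and not every sample correlated best with its own number, so the number was not taken as a pairing. With the replicate number as a block 3627 genes were higher and 3577 lower, with 14 and 19 members, Pxn being added. Depth limits Itga2, Itga9, Itgb4, Itgb7 and Ptk2b, which had under 50 counts in every sample.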

Other observations

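Membrane partners of integrins went both ways with AngII. Of 17 tested tetraspanins and partners, 5 rose (29.4%) and 9 fell (52.9%), with a median log2 fold change of -0.13. The shares of all tested genes were 29.0% and 28.6%. For abundant genes, averaging 50 CPM or more, they were 35.7% and 33.4%. This short list was not matched for abundance, so its counts are a description only. Cd151, the tetraspanin bound to the laminin receptors, fell from 164 ± 4.18 to 126 ± 0.748 CPM (SD, n = 3; edgeR adjusted p = 9.1e-09). Cd81, another tetraspanin, fell from 371 ± 10.2 to 249.6 ± 18.4 CPM (adjusted p = 1.6e-09), and Sdc4, the syndecan that acts with α5β1 on fibronectin, from 62.7 ± 1.42 to 41.2 ± 1.01 CPM (adjusted p = 4.5e-10). Slc3a2, the CD98 heavy chain that binds β tails, rose from a mean of 219.7 to one of 339 CPM (adjusted p = 2.1e-09), Kdr, the VEGF receptor, by 0.28 on the log2 scale and Cd9 by 0.14.

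Of 20 tested genes for integrin inhibitors and traffic 4 rose and 6 fell (beside 29.0% and 28.6% of all tested genes; median -0.05). Stab1, a scavenger receptor, rose by 0.39 on the log2 scale, and Rab5a and Rab21, GTPases of early endosomes, by 0.26 and 0.14. Rab11a, the GTPase of slow recycling, fell by 0.32, the integrin inhibitor Sharpin by 0.32 and the clathrin adaptor subunit Ap2a1 by 0.20.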
